A study of Mus musculus with 21 samples.

Results

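MHC class I molecules display peptides cut from proteins made inside the cell, and the genes described here encode the parts of that display line. The 10 genes were listed by name: the heavy chains H2-K1, H2-D1 and H2-M2, the light chain B2m, the peptide transporter subunits Tap1 and Tap2, the loading factor Tapbp (tapasin), and the immunoproteasome subunits Psmb8, Psmb9 and Psmb10. An identifier of the count table mapped to 9 of the 10 listed symbols, among 47069 identifiers in all. Psmb9 was not matched, so its expression is not analysed here, and only its position and promoter window are described. All 9 passed the filter on low counts and had counts in each of the 7 groups, H2-M2 only few of them in untreated cells.

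The RNA came from macrophages derived from mouse bone marrow, that is, from marrow cells cultured with the growth factor M-CSF. The mice were wild-type C57BL/6, 8 to 10 weeks old. Cells of Ctrl_0h were untreated and taken at 0 h. Cells of TNF_6h and TNF_24h received tumour necrosis factor (TNF), cells of IL_6h and IL_24h received interleukin 4 and interleukin 13 (together IL here), and cells of IL_TNF_6h and IL_TNF_24h received all of these, each cytokine at 10 ng/ml, for 6 h or 24 h. Each group had 3 libraries, 21 in all. No untreated cells were sampled at 6 h or 24 h, so any difference from Ctrl_0h includes that of 6 h or 24 h more in culture. Whether the 3 libraries of a group are separate cultures or animals is not in the labels, and the p values therefore refer to the spread of these samples alone, which may be technical.

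Proteasomes in the cytosol cut proteins into peptides, and the immunoproteasome is a form in which inducible catalytic subunits take the place of constitutive ones. The transporter formed by Tap1 and Tap2 moves peptides into the endoplasmic reticulum, where tapasin holds the transporter next to an empty class I molecule made of a heavy chain and B2m. Interferons and TNF are known inducers of these genes, through interferon regulatory factors, the class I transactivator NLRC5 and NF-kB, while IL-4 and IL-13 signal mainly through STAT6.

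The promoters of class I heavy chains and of B2m are known for an upstream enhancer with a kappa B site, bound by NF-kB, next to an interferon-stimulated response element. Promoter windows were read from RefSeq tables of build GRCm38.p6, from 250 bases before to 50 bases after each start site, and 9 of the 10 listed genes had one, all but Tap2. Both strands were searched for the kappa B consensus, for GAANNGAAA and for a pair of GAAA copies spaced by 2 bases, the last 2 being repeats of a kind that interferon regulatory factors can bind. The windows of H2-K1, H2-M2 and B2m are printed because each held both kinds of match, and the matches are in capitals.
H2-K1, minus strand, chr17:34000298-34000597: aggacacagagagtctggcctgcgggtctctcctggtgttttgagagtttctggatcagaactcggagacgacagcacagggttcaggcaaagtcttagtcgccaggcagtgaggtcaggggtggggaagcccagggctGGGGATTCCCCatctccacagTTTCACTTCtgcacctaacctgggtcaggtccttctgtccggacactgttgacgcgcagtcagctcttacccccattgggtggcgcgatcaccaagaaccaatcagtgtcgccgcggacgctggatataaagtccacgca
H2-M2, minus strand, chr17:37483505-37483804: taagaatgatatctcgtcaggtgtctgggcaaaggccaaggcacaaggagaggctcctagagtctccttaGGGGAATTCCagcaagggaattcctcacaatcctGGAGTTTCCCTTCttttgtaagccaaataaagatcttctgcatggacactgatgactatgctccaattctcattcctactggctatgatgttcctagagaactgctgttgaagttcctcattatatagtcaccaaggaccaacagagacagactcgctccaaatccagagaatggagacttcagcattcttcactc
B2m, plus strand, chr2:122147437-122147736: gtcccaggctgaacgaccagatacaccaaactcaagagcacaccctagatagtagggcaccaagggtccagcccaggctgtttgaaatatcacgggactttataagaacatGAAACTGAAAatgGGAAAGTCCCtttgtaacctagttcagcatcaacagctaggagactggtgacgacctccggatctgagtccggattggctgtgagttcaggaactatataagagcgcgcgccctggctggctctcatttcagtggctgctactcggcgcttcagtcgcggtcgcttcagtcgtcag

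In H2-K1 the kappa B letters GGGGATTCCC began 111 bases before the start site of the window used, and the overlapping GGGATTCCCC began 1 base later. The repeat TTTCACTTC, which is GAANNGAAA read on the other strand, began 90 bases before that start. H2-K1 had 2 windows, and the one used ends at 34000597, inside the gene, which extends to 34000619. A CCAAT began 8 bases after that start in H2-K1 and 53 bases before the start in H2-D1. Distances in these 2 genes are therefore not on the same footing. H2-D1 held the same 3 matched sequences, from 171, 170 and 150 bases before its start. H2-M2 held kappa B matches 180 and 146 bases before its start, and the second of these overlapped its repeat, TTTCCCTTC, at 142 bases. In B2m the order was the other way round, with GAAACTGAAA 139 bases and GGAAAGTCCC 126 bases before the start. A kappa B match was found in 8.49% of 32544 promoter windows of the same length, a repeat of either form in 10.4%, and both together in 0.725%. The windows of Tap1, Tapbp, Psmb8, Psmb9 and Psmb10 held no match to these motifs in these letters. Psmb8 held TTCCCAGAA, a match to the palindrome TTCNNNGAA, 97 bases before its start, a motif present in 8.33% of windows.

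Tap1 and Psmb9 are read in opposite directions from start sites 226 bases apart, and the window of Tap1 is printed with the 225 bases between these sites in capitals.
Tap1, plus strand, chr17:34187306-34187605: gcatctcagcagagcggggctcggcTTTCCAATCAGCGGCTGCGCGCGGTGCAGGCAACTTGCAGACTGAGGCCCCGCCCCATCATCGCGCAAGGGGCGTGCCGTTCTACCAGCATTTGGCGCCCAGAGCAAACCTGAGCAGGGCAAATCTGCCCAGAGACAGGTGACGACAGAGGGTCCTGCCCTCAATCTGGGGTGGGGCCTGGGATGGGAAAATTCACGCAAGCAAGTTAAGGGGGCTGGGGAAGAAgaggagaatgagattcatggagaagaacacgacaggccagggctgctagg

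Of the 10 genes, 8 lie in the major histocompatibility complex on chromosome 17, B2m lies on chromosome 2 and Psmb10 on chromosome 8. In GRCm38.p6 Psmb9 (17: 34182030 to 34187330), Tap1 (ENSMUSG00000037321, 17: 34187556 to 34197225), Psmb8 (ENSMUSG00000024338, 17: 34198195 to 34201454) and Tap2 (ENSMUSG00000024339, 17: 34204479 to 34216321) follow each other. Tapbp (ENSMUSG00000024308) is at 17: 33919478 to 33929290, H2-K1 (ENSMUSG00000061232) at 17: 33996012 to 34000619, H2-D1 (ENSMUSG00000073411) at 17: 35263094 to 35267497 and H2-M2 (ENSMUSG00000016283) at 17: 37480851 to 37483554. B2m (ENSMUSG00000060802) is at 2: 122147687 to 122153082 and Psmb10 (ENSMUSG00000031897) at 8: 105935728 to 105938392. Class I heavy chains are close copies of each other, so the split of reads between H2-K1, H2-D1 and the H2-Q and H2-T genes is uncertain. The strand setting of the counting is not given in the sources used here, so reads of Patl2 can be counted for B2m and reads of Gm19412 for Tapbp, which overlap them.

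The libraries held 28.1 to 48.7 M counts (M, 1e6) in genes. Levels are CPM, the counts of a gene per 1e6 counts of its library after trimmed-mean (TMM) scaling of the total, and changes are log2 fold changes ± standard error from the quasi-likelihood F test of edgeR, called at a Benjamini-Hochberg adjusted p below 0.05 over 15581 genes. The libraries fell into sets that the labels do not give. Xist, expressed from the inactive X chromosome of females, was at 162 CPM or more in the 15 libraries of Ctrl_0h, TNF_6h, TNF_24h, IL_6h and IL_TNF_6h and at 0.145 CPM or less in the 6 libraries of IL_24h and IL_TNF_24h, and the Y-linked Ddx3y was at 41.8 CPM or more in those 6 and at 0 in the other 15. Ifi202b, an interferon-inducible gene taken from a list of haplotype-linked genes, was at 30.3 to 64.2 CPM in IL_6h and IL_TNF_6h. It had no count elsewhere. Whether IL_6h and IL_TNF_6h differ from the other groups in genetic background was not tested. Comparisons of TNF with Ctrl_0h, of TNF_24h with TNF_6h and of IL_TNF with IL at the same time stay within a set, and all others cross sets, so that there the treatment and the set cannot be told apart. All 10 macrophage markers had counts in each group, with lowest levels over the libraries from 8.56 CPM (Mertk) and 10.7 CPM (Fcgr1) to 6147 CPM (Lyz2, lysozyme), and their sum ran from 12586 to 13402 CPM in IL_24h up to 41107 to 44271 CPM in TNF_6h. Markers of other cells were not absent, and all but those of dendritic cells stayed below every macrophage marker. The highest single levels were 0.637 CPM for eosinophils, mast cells and basophils (Cpa3), 1.51 CPM for neutrophils (Camp), 4.36 CPM for erythroid cells (Klf1), 3.11 CPM for T and NK cells (Lck), 5.23 CPM for fibroblasts (Col1a1) and 5.65 CPM for B cells (Cd79a). Dendritic cell markers reached 21.5 CPM (Fscn1), above the lowest levels of Mertk and Fcgr1. Ctrl_0h libraries differed in this, with summed levels of 0.685 to 10.08 CPM for B cell and 0.914 to 16.3 CPM for dendritic cell markers. Replicate 2 of Ctrl_0h had a count for 27761 identifiers, the most of all libraries, at the lowest total (28.06 M). Replicates 1 and 3 had one for 17482 and 17243. The part of this wide low-level coverage in the marker sums was not tested. In bulk RNA, a changed number of cells expressing a gene and a changed amount per cell cannot be told apart. Lack of overlap between groups is given gene by gene as a description, and its share over all genes was not computed. A further 4 libraries stood apart from their groups, replicate 2 of Ctrl_0h, replicate 2 of IL_6h, replicate 3 of IL_TNF_6h and replicate 1 of IL_TNF_24h. Calls that changed when all 4 were left out are given beside the results. Each of the 4 differed from both others of its group by a chi-square per degree of freedom of 75.3 or more. Replicates 1 and 3 of TNF_24h differed by 98.3 but were kept, with replicate 2 at 26.9 and 37.3 from them.

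In untreated cells the heavy chains and B2m were abundant and H2-M2 was almost absent. Together the 9 genes took 0.846% ± 0.0816 (SD, n = 3) of all counts in Ctrl_0h, against 2.75% ± 0.0987 in TNF_6h, 1.81% ± 0.0693 in TNF_24h, 1.35% ± 0.162 in IL_6h, 0.913% ± 0.0427 in IL_24h, 1.67% ± 0.164 in IL_TNF_6h and 1.55% ± 0.396 in IL_TNF_24h. Scaled to merged exon length, taken from the GENCODE M1 annotation, mean levels in Ctrl_0h were 1707 CPM per kb for B2m, 1471 for H2-D1, 825 for H2-K1, 180 for Psmb10, 118 for Tapbp, 89.2 for Psmb8, 22.1 for Tap2, 19.7 for Tap1 and 0.280 for H2-M2. On this length scale B2m, H2-D1 and H2-K1 stood above the transporter and proteasome subunits in untreated cells.

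**Figure D1:**
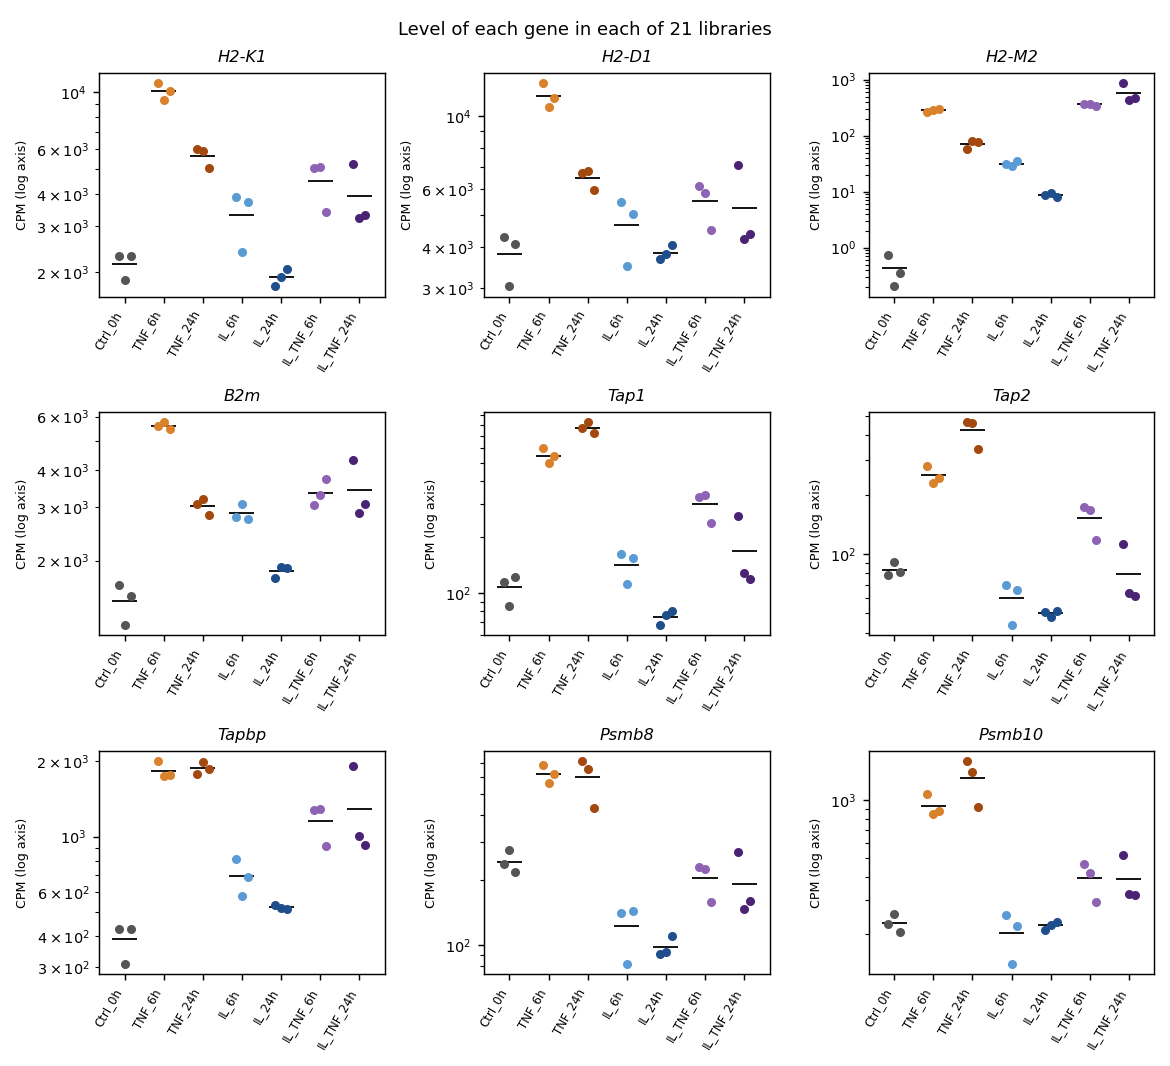
Level of each of the 9 genes in CPM on a log axis, with 1 point per library and a bar at the mean of each of the 7 groups. Every TNF_6h and TNF_24h library lay above every Ctrl_0h library for all 9 genes, a share that was not computed over all genes. H2-M2 ran from 0.437 CPM on average in Ctrl_0h to 587 CPM in IL_TNF_24h.

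TNF for 6 h raised all 9 genes, each by at least 2-fold. Among all genes tested, 18.8% were called raised in this comparison, 7.75% were called raised at least 2-fold and 20.5% were called lowered. The median change of the 9 was 2.03 on the log2 scale, against -0.04 for all genes tested. With library totals alone in place of the scaled totals, the median of all genes moved by -0.21, and the 9 genes were still called raised. Of the 10 macrophage markers 6 were called raised as well and none lowered, with sums of 22907 to 27232 CPM in Ctrl_0h and 41107 to 44271 CPM in TNF_6h, and their part in the result was not tested.

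H2-K1, a classical heavy chain that presents peptides to CD8 T cells, had 2302, 1854 and 2303 CPM in the 3 Ctrl_0h libraries and 10777, 9265 and 10105 CPM in TNF_6h. The other classical heavy chain, H2-D1, went from 4284, 3042 and 4095 CPM to 12529, 10639 and 11332 CPM. The groups did not overlap for either gene, and the log2 fold changes were 2.22 ± 0.21 for H2-K1 (adjusted p = 6.87e-08) and 1.6 ± 0.20 for H2-D1 (adjusted p = 2.35e-06). B2m, the light chain shared by all of these heavy chains, had 1654, 1220 and 1530 CPM in Ctrl_0h and 5604, 5750 and 5446 CPM in TNF_6h, a change of 1.93 ± 0.14 (adjusted p = 3.28e-09).

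H2-M2, a non-classical heavy chain, showed the largest change of the 9. Its levels in Ctrl_0h were 0.748, 0.203 and 0.359 CPM, from 45 counts in all 3 libraries together, and in TNF_6h they were 268, 291 and 300 CPM (299.5 in replicate 3). The log2 fold change was 9.29 ± 0.35 (adjusted p = 2.61e-13). Since the untreated level rests on few counts, this size depends on single control libraries: without replicate 1 of Ctrl_0h it was 9.98, and TNF_24h, IL_6h and IL_24h against Ctrl_0h moved in the same way, from 7.29 to 7.98, from 6.11 to 6.80 and from 4.27 to 4.96.

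Of the peptide-loading genes, Tap1 went from 115, 85.1 and 122 CPM in Ctrl_0h to 597, 499 and 543 CPM in TNF_6h (2.34 ± 0.24, adjusted p = 2.73e-07). Tap2, its partner in the transporter, went from 77.9, 91.0 and 81.4 CPM to 278, 229 and 242 CPM (1.58 ± 0.22, adjusted p = 9.84e-06). Tapbp went from 428, 308 and 428 CPM to 2004, 1743 and 1761 CPM (2.24 ± 0.22, adjusted p = 1.85e-07). All TNF_6h libraries exceeded all untreated ones for these 3 genes.

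The immunoproteasome subunits rose as well. Psmb8 (also called LMP7) had 237, 277 and 219 CPM in Ctrl_0h and 683, 566 and 620.2 CPM in TNF_6h, a change of 1.35 ± 0.24 (adjusted p = 0.000184). Psmb10 (also called MECL-1) had 226, 256 and 204 CPM and then 1078, 847 and 877 CPM, a change of 2.03 ± 0.24 (adjusted p = 1.57e-06). Psmb8 had the smallest change of the 9, and it was still without overlap between the groups.

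At 24 h of TNF all 9 genes were still called raised against Ctrl_0h, where 20.9% of all genes tested were, with 24.4% called lowered. The median of the 9 was 2.28, against -0.09 for all genes tested. The changes were 2.84 ± 0.25 for Tap1, 2.52 ± 0.25 for Psmb10, 2.34 ± 0.22 for Tap2, 2.28 ± 0.22 for Tapbp and 1.30 ± 0.24 for Psmb8. They were 1.39 ± 0.20 for H2-K1, 1.05 ± 0.14 for B2m and 0.77 ± 0.19 for H2-D1 (adjusted p = 0.00313), and 7.29 ± 0.33 for H2-M2. Apart from H2-M2, the 4 largest changes at 24 h were those of the transporter subunits, tapasin and Psmb10.

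Between 6 h and 24 h of TNF the heavy and light chains fell, and none of the other 5 genes was called lowered. H2-K1, H2-D1, H2-M2 and B2m were called lowered, 4 of 9, where 10.9% of all genes tested were. Tap2 was the 1 of 9 called raised, where 12.7% of all genes were. Of the 10 macrophage markers 4 were called lowered as well and none raised. Their sums were 41107 to 44271 CPM in TNF_6h and 30424 to 36765 CPM in TNF_24h. Of 6 dendritic cell markers tested, 2 were called raised. The part of these markers in the result was not tested.

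H2-K1 stood at 5986, 5892 and 5063 CPM in TNF_24h, below every TNF_6h library, a change of -0.83 ± 0.20 (adjusted p = 0.00417). H2-D1 stood at 6730.2, 6789 and 5954 CPM (-0.83 ± 0.19, adjusted p = 0.00359), and B2m at 3079, 3198 and 2831 CPM (-0.88 ± 0.14, adjusted p = 0.000102). H2-M2 stood at 57.2, 79.0 and 78.4 CPM, a change of -2.0 ± 0.23 (adjusted p = 4.29e-06). None of these 4 overlapped between the times, and the share of all genes without overlap was not computed.

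The 4 genes that fell between these times are the 4 whose promoter windows held a kappa B match together with a repeat match, as printed above for 3 of them. This describes the 8 genes that have both a window and an expression value, which leaves out Tap2, the gene called raised between these times, and no test was made of it. H2-K1 and H2-D1 hold the same matched sequences and class I heavy chains are close copies, so the 4 are not independent cases. The windows of other class I genes were not read one by one.

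Tap2 stood at 464, 462 and 340.0 CPM in TNF_24h, above every TNF_6h library, and its change of 0.76 ± 0.21 (adjusted p = 0.0136) was lost when any of 4 libraries was left out, with adjusted p of 0.0626 and 0.0531 without replicate 2 or 3 of TNF_6h and 0.0514 and 0.0602 without replicate 1 or 2 of TNF_24h. Tap1 stood at 766, 825 and 718 CPM (0.49 ± 0.23, adjusted p = 0.135), also without overlap but not called in this fit. Without replicate 1 of IL_TNF_24h, which enters through the shared estimate of spread, Tap1 was called (0.48, adjusted p = 0.036). Psmb10 stood at 1604, 1414 and 921 CPM (0.49 ± 0.23, adjusted p = 0.143), Psmb8 at 714, 657 and 433 CPM (-0.05 ± 0.24) and Tapbp at 1777, 1995 and 1861 CPM (0.03 ± 0.21), and these 3 overlapped between the times. Without the 4 libraries that stand apart, Tap1 (0.48, adjusted p = 0.000214) and Psmb10 (0.48, adjusted p = 0.0157) were called raised, where 19.3% of all genes were. Replicate 3 of TNF_24h was the lowest of its group for both proteasome subunits and for Tap2.

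**Figure D2:**
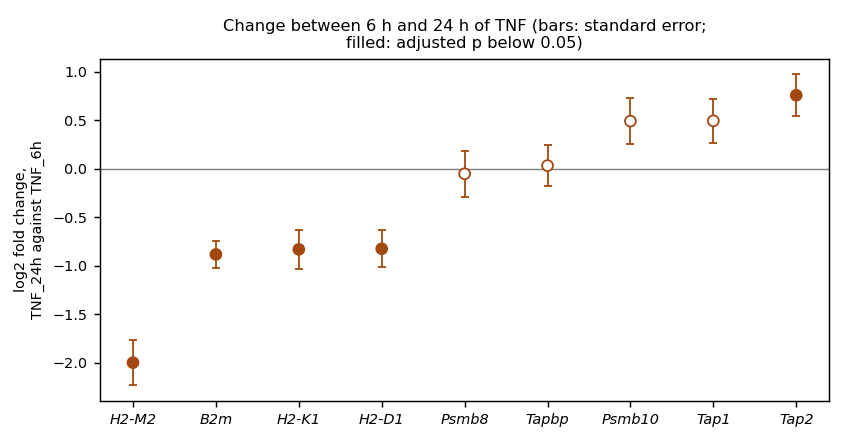
Log2 fold change of each gene in TNF_24h against TNF_6h, with bars for the standard error and filled points for an adjusted p below 0.05. H2-M2 (-2.0), B2m, H2-K1 and H2-D1 lie below 0, and Tap2 (0.76) is the filled point above 0.

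Against Ctrl_0h, some of the genes were called raised and others lowered in cells with IL alone. Calls were common among all genes in these comparisons, so the counts do not set the 9 apart. The groups compared also differ in library set and time. At 6 h 4 of the 9 were called raised, where 32.8% of all genes tested were, and 1 was called lowered, where 31.6% were. The raised genes were H2-M2 (6.11 ± 0.32), B2m (0.97 ± 0.14), Tapbp (0.84 ± 0.22) and H2-K1 (0.63 ± 0.20), and the lowered gene was Psmb8 (-1.001 ± 0.24). H2-M2 stood at 31.0, 29.1 and 35.0 CPM in IL_6h, above each untreated library, and B2m at 2798, 3084 and 2744 CPM.

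The call of H2-K1 in IL_6h was lost without replicate 1 of IL_6h (0.51, adjusted p = 0.0509). H2-K1 stood at 3898, 2390 and 3720 CPM there, with replicate 2 the lowest. Replicate 2 of IL_6h held 0.573 to 0.881 times the mean of the other IL_6h libraries for 8 of the 9 genes, and 1.11 times for B2m, and replicate 3 of IL_TNF_6h held 0.668 to 0.923 times for the same 8 and 1.17 times for B2m. The summed fibroblast markers were 9.83 CPM in the first and 8.54 CPM in the second of these libraries, and the part of other cells in these levels was not tested. H2-D1 (0.29 ± 0.19) and Tap1 (0.40 ± 0.23) were not called in IL_6h but were without replicate 2 (0.51, adjusted p = 0.0307, and 0.60, adjusted p = 0.0482), and also without all 4 libraries that stand apart (0.37 and 0.45). Tap1 was also called without replicate 1 of IL_TNF_24h (0.45), as was Tap2 (-0.48 ± 0.21 with all libraries, -0.43 without that one, and -0.60 without replicate 1 of IL_6h).

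At 24 h of IL, 2 of 9 were called raised and 2 lowered, against 31.7% and 32.6% of all genes tested. Psmb8 stood at 90.9, 93.3 and 110 CPM (110.5 in replicate 3), below every untreated library (-1.31 ± 0.24, adjusted p = 0.000113). Tap2 stood at 50.7, 48.2 and 51.7 CPM (-0.73 ± 0.22, adjusted p = 0.00605), likewise below all of Ctrl_0h. H2-M2 had 8.76, 9.51 and 8.15 CPM (4.27 ± 0.32), more than untreated cells and less than at 6 h in every library. B2m was called by a small margin (0.33 ± 0.14, adjusted p = 0.043), and it lost the call without replicate 2 or 3 of Ctrl_0h (adjusted p = 0.208 and 0.0527) or replicate 2 or 3 of IL_24h (0.0615 and 0.0905). H2-K1 (-0.18 ± 0.20), H2-D1 (0.02 ± 0.19), Psmb10 (-0.04 ± 0.23), Tapbp (0.42 ± 0.21) and Tap1 (-0.53 ± 0.23, adjusted p = 0.0537) were not called. Tap1 was called lowered without replicate 2 of Ctrl_0h (-0.67) or without replicate 1 or 3 of IL_TNF_24h (-0.47 and -0.52), and Tapbp raised without that replicate 1 (0.47). Without the 4 libraries that stand apart, 7 of the 9 were called in either direction, where 68% of all genes were, with H2-K1 at -0.23, Tap1 at -0.63 and Tapbp at 0.33 added.

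Adding TNF to IL raised part of the genes at each time. At 6 h, 6 of the 9 were called raised against IL_6h and none lowered, where 7.09% of all genes tested were called raised and 6.98% lowered. The largest was H2-M2, at 374, 371 and 344 CPM in IL_TNF_6h (3.52 ± 0.25, adjusted p = 6.29e-09). Tap2 followed, with 173, 167 and 118 CPM against 69.9, 43.5 and 65.9 CPM in IL_6h (1.35 ± 0.22, adjusted p = 0.000169), and Tap1, with 329, 336 and 239 CPM against 162, 112 and 154 CPM (1.08 ± 0.23, adjusted p = 0.00266). None of these 3 overlapped between the groups. The summed level of dendritic cell markers was 3.16 to 4.34 CPM in IL_6h and 22.7 to 27.98 CPM in IL_TNF_6h, with 1 of 6 tested called raised, and that of B cell markers 0.457 to 1.17 and 3.16 to 4.35 CPM, with 1 of 2 called raised. In IL_TNF_6h the dendritic cell marker Cd209a was at 0, and in IL_6h the B cell markers Ms4a1, Ebf1 and Pax5 were. Their part in the result was not tested.

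Psmb10 (0.95 ± 0.24), Tapbp (0.74 ± 0.22) and Psmb8 (0.74 ± 0.24, adjusted p = 0.0445) made up the 6, and these calls leaned on single libraries. Psmb8 lost its call without any of 16 of the 21 libraries, 5 of them in the groups compared (replicates 1, 2 and 3 of IL_6h and 1 and 2 of IL_TNF_6h), with changes from 0.53 to 0.87 and adjusted p from 0.05 to 0.193. Tapbp lost it without replicate 2 or 3 of IL_6h or 1 or 2 of IL_TNF_6h (0.64 to 0.74), and Psmb10 without replicate 2 of IL_6h (0.74) or replicate 1 of IL_TNF_6h (0.81), so that 3 of 9 were called without either of these last libraries. The classical heavy chains and the light chain were not called: H2-K1 changed by 0.44 ± 0.20 (adjusted p = 0.181), H2-D1 by 0.24 ± 0.19 and B2m by 0.23 ± 0.14. H2-K1 stood at 5048, 5101 and 3420 CPM in IL_TNF_6h, which overlapped IL_6h. Without the 4 libraries that stand apart H2-K1 was called (0.43, adjusted p = 0.00387), where 9.68% of all genes were called raised.

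At 24 h, 7 of the 9 were called raised against IL_24h and none lowered, where 6.03% of all genes tested were called raised and 5.08% lowered. Every IL_TNF_24h library exceeded every IL_24h library for all 9, and the share of all genes without overlap was not computed. H2-M2 rose from 8.76, 9.51 and 8.15 CPM to 859, 440.3 and 462 CPM (6.06 ± 0.28, adjusted p = 2.92e-11). Tapbp rose from 530.2, 518 and 514 CPM to 1921, 1004 and 928 CPM (1.30 ± 0.22, adjusted p = 0.00032). In both cases replicate 1 of IL_TNF_24h was the highest library. Of 6 dendritic cell markers tested, 3 were also called raised here, and the summed level of the 8 matched was 34.1 to 37.7 CPM in IL_TNF_24h, with Cd209a and Siglech at 0, against 3.19 to 4.55 CPM in IL_24h; their part in the result was not tested.

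Tap1 (1.17 ± 0.23), H2-K1 (1.05 ± 0.20), Psmb8 (0.97 ± 0.24), B2m (0.89 ± 0.14) and Psmb10 (0.80 ± 0.23) were the other genes called. Tap2 (0.66 ± 0.22, adjusted p = 0.0567) and H2-D1 (0.44 ± 0.19) were not, and Tap2 was called without replicate 2 of IL_6h (0.66), 3 of IL_TNF_6h (0.66) or 2 or 3 of IL_TNF_24h (0.79 and 0.81). Replicate 1 of IL_TNF_24h held 1.45 times (B2m) to 2.09 times (Tap1) the mean of the other IL_TNF_24h libraries, and its part in the result was measured by leaving it out. Without it the changes were 5.68 for H2-M2, 0.90 for Tapbp, 0.79 for H2-K1, 0.73 for Tap1 and 0.70 for B2m, all still called, and 0.65 for Psmb8 (adjusted p = 0.105) and 0.54 for Psmb10 (adjusted p = 0.23), which were not. Psmb8 also lost its call without replicate 1 or 2 of IL_24h (adjusted p = 0.062 and 0.0571), and Psmb10 without replicate 1, 2 or 3 of IL_24h (0.127, 0.102 and 0.0852).

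**Figure D3:**
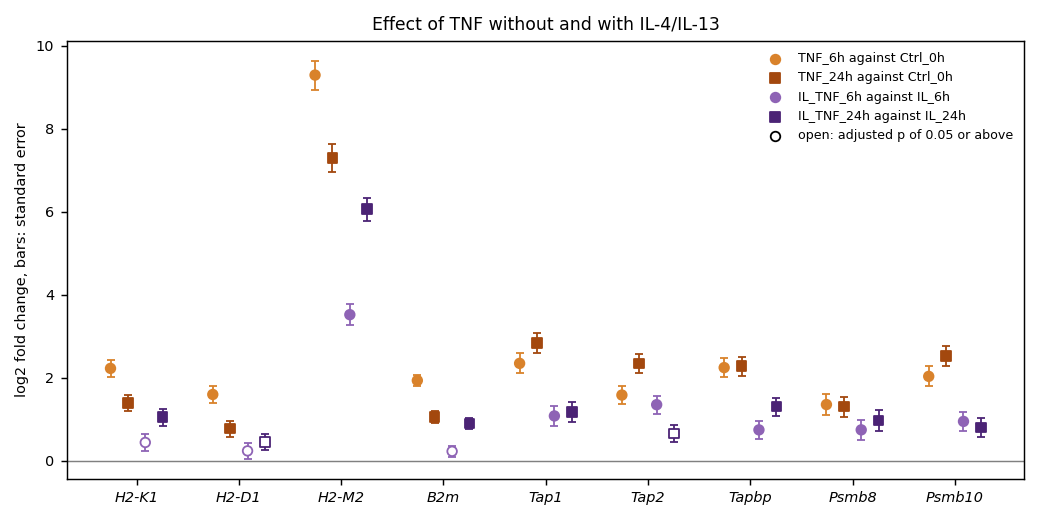
Effect of TNF on each gene as log2 fold change with bars for the standard error, without IL (orange and brown, against Ctrl_0h) and with IL (purple, against IL at the same time), where open points have an adjusted p of 0.05 or above. For H2-K1, H2-D1 and B2m at 6 h the effect with IL (0.44, 0.24 and 0.23) lies close to 0 and far under that without IL.

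The effect of TNF at 6 h was smaller with IL than without it for most of the genes. The difference between the effects was tested itself, and 7 of 9 were called lower with IL, where 9.13% of all genes tested were and 9.27% were called higher. It was -5.77 ± 0.39 for H2-M2, -1.78 ± 0.28 for H2-K1 (adjusted p = 0.00017), -1.71 ± 0.20 for B2m (adjusted p = 7.16e-06), -1.5 ± 0.30 for Tapbp, -1.36 ± 0.27 for H2-D1, -1.26 ± 0.33 for Tap1 and -1.08 ± 0.33 for Psmb10 (adjusted p = 0.0271). For Tap2 it was -0.23 ± 0.30 and for Psmb8 -0.61 ± 0.34, and neither passed the test, but without the 4 libraries that stand apart Psmb8 did (-0.85, adjusted p = 0.0116), where 14.6% of all genes were called lower. The level of H2-M2 with both treatments (374, 371 and 344 CPM) was no lower than with TNF alone (268, 291 and 299.5 CPM). Its level was also higher in IL_6h than in Ctrl_0h, and the part of this in the difference was not tested. Without replicate 1 of Ctrl_0h the H2-M2 difference was -6.46. Psmb10 lost its call without replicate 3 of Ctrl_0h, 1 of TNF_6h, 1 or 3 of IL_6h or 3 of IL_TNF_6h (-1.03 to -0.91). The TNF effect without IL was measured against cells at 0 h and in another set of libraries, and here IL, the time of the control and the set cannot be told apart. Of the 10 macrophage markers 5 were also called lower with IL by this test and none higher. Their part in the result was not tested.

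At 24 h, 5 of 9 differences were called lower, against 12.5% of all genes, with 11.6% called higher. These were Psmb10 (-1.73 ± 0.33), Tap2 (-1.68 ± 0.30), Tap1 (-1.66 ± 0.33), H2-M2 (-1.23 ± 0.40) and Tapbp (-0.97 ± 0.30), while H2-K1 (-0.35 ± 0.28), H2-D1 (-0.33 ± 0.27), Psmb8 (-0.33 ± 0.34) and B2m (-0.15 ± 0.20) did not pass the test. H2-M2 lost its call without any of 8 libraries, which were replicates 2 and 3 of Ctrl_0h, of TNF_24h and of IL_TNF_24h and 1 and 2 of IL_24h (-1.24 to -0.91), and was -1.92 without replicate 1 of Ctrl_0h. Tapbp lost its call without replicate 2 of Ctrl_0h or of TNF_24h, 1 of IL_24h, or 2 or 3 of IL_TNF_24h (-0.96 to -0.79), and without each of these 5 libraries 3 of 9 remained called. H2-D1 was called without replicate 1 of IL_TNF_24h (-0.68, adjusted p = 0.043). Without the 4 libraries that stand apart all 9 differences were called lower, where 18.9% of all genes were, with H2-K1 at -0.58, H2-D1 at -0.54, B2m at -0.31 and Psmb8 at -0.82. With all libraries, 3 of the 10 macrophage markers were called lower by this test and 1 higher, and their part was not tested.

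The effect of TNF under IL differed between 24 h and 6 h for 1 of the 9, where 1.89% of all genes were called higher and 1.78% lower. This was H2-M2, whose effect was larger at 24 h by 2.54 ± 0.33 (adjusted p = 8.25e-05) and by 2.16 without replicate 1 of IL_TNF_24h. For B2m the difference of 0.67 ± 0.20 had an adjusted p of 0.0694, and it passed without replicate 2 of Ctrl_0h (0.67) or replicate 2 of IL_TNF_24h (0.78). Tap2 (-0.69 ± 0.30) passed without replicate 1 of IL_TNF_24h (-1.04). Both passed without the 4 libraries that stand apart (0.49 for B2m and -1.01 for Tap2), where 4.51% of all genes were called higher and 4.88% lower. These groups also differ in the library set.

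Cells with both treatments held less of most of the genes than cells with TNF alone. At 6 h, 8 of 9 were called lowered in IL_TNF_6h against TNF_6h, where 27.5% of all genes were called lowered and 29.7% raised. The changes of these 8 ran from -0.66 ± 0.22 for Tapbp to -1.61 ± 0.24 for Psmb8. The groups did not overlap for them, and the share of all genes without overlap was not computed. H2-M2 was not called (0.34 ± 0.22), although all of its libraries lay higher, and it was called without the 4 libraries that stand apart (0.35, adjusted p = 0.0219). Tapbp lost its call without replicate 1 of TNF_6h (-0.59) or 3 of IL_TNF_6h (-0.54). Of the 10 macrophage markers 5 were called lowered here and 1 raised, and their part in the result was not tested.

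At 24 h, 6 of 9 were called lowered in IL_TNF_24h against TNF_24h, where 27.1% of all genes were, and H2-M2 was called raised, where 29.2% were. Tap2 fell by 2.42 ± 0.22 on the log2 scale, Tap1 by 2.19 ± 0.24, Psmb10 by 1.76 ± 0.24 and Psmb8 by 1.64 ± 0.25. H2-M2 rose by 3.04 ± 0.24. Tapbp (-0.55 ± 0.21) and H2-K1 (-0.52 ± 0.20) were called by a smaller margin: both lost the call without replicate 1 or 2 of TNF_24h or 2 or 3 of IL_TNF_24h, and Tapbp also without replicate 3 of TNF_24h, with values from -0.58 to -0.36. H2-D1 (-0.31 ± 0.19) was called without replicate 1 of IL_TNF_24h (-0.61) and without all 4 libraries that stand apart (-0.62), and B2m (0.18 ± 0.14) was -0.04 without it. At 24 h 6 of the 10 macrophage markers were called lowered and 2 raised, and their part in the result was not tested. The comparisons of IL_TNF with TNF cross the library sets.

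The order of the 7 groups by mean level differed between the genes. For H2-K1 it was TNF_6h, TNF_24h, IL_TNF_6h, IL_TNF_24h, IL_6h, Ctrl_0h and IL_24h, with means of 10049, 5647, 4523, 3932, 3336, 2153 and 1904 CPM. Among neighbours in that order only TNF_6h from TNF_24h and IL_6h from Ctrl_0h were without overlap. H2-D1 ran from 11500.2 CPM in TNF_6h to 3807 CPM in Ctrl_0h, and every neighbouring pair of groups below TNF_6h overlapped.

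Tap1 was ordered TNF_24h, TNF_6h, IL_TNF_6h, IL_TNF_24h, IL_6h, Ctrl_0h and IL_24h, from 770 to 74.8 CPM (769.8 in TNF_24h). Tap2 ran from 422 CPM in TNF_24h to 50.2 CPM in IL_24h, and its IL_TNF_24h mean of 79.1 CPM lay next to the untreated 83.4 CPM with overlap. Psmb8 in both IL_TNF groups had means of 204 and 192 CPM, and the untreated mean of 244 CPM stood next above them, with overlap between Ctrl_0h and IL_TNF_6h. H2-M2 was the only one of the 9 with no overlap between any neighbours, in the order IL_TNF_24h, IL_TNF_6h, TNF_6h, TNF_24h, IL_6h, IL_24h and Ctrl_0h, with means of 587, 363, 286, 71.5, 31.7, 8.81 and 0.437 CPM.

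Across the 21 libraries Pearson's r of log2 CPM was 0.965 between H2-K1 and H2-D1, 0.96 between Tap1 and Tap2, 0.915 between Psmb8 and Psmb10 and 0.25 between H2-M2 and Psmb8. Within groups, over the deviations of libraries from their group means, r was 0.968 for Psmb8 with Psmb10, 0.949 for Tap2 with Psmb10 and 0.114 for B2m with Psmb10. These points share depth, treatment and library set, so the values describe the libraries only.

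The catalytic subunit that Psmb8 replaces is Psmb5, and the one that Psmb10 replaces is Psmb7. Neither constitutive subunit was called in TNF_6h (0.12 for Psmb5, 0.21 for Psmb7), and Psmb6, the counterpart of Psmb9, was called raised there (0.72). Per exon length, the ratio of Psmb8 to Psmb5 counts was 0.581 ± 0.00730 (SD, n = 3) in Ctrl_0h, 1.36 ± 0.0240 in TNF_6h, 1.27 ± 0.0976 in TNF_24h, 0.677 ± 0.0346 in IL_6h, 0.561 ± 0.0257 in IL_24h, 0.978 ± 0.0760 in IL_TNF_6h and 0.927 ± 0.136 in IL_TNF_24h. Both TNF groups lay above 1 in each library and the untreated ones below it. Where 1 falls depends on the merged exon lengths used (2736 bases for Psmb8 and 922 for Psmb5). Only the differences between groups can therefore be read. The ratio of Psmb10 to Psmb7 was 4.63 ± 1.40 in Ctrl_0h, 15.9 ± 3.07 in TNF_6h, 19.8 ± 3.89 in TNF_24h, 3.69 ± 0.971 in IL_6h, 5.41 ± 0.581 in IL_24h, 6.45 ± 1.77 in IL_TNF_6h and 8.08 ± 1.99 in IL_TNF_24h.

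On the log2 scale the Psmb8 ratio was higher by 1.23 in TNF_6h and by 1.13 in TNF_24h than in Ctrl_0h, by 0.53 in IL_TNF_6h than in IL_6h and by 0.72 in IL_TNF_24h than in IL_24h, without overlap in each case. IL_6h was higher than Ctrl_0h by 0.22 without overlap, although both Psmb8 (-1.001) and Psmb5 (-1.23) were called lowered there. IL_24h overlapped Ctrl_0h (-0.05). The Psmb10 ratio was higher by 1.81 and 2.12 in the TNF groups and by 0.56 in IL_TNF_24h over IL_24h, without overlap, and IL_TNF_6h overlapped IL_6h (0.80, exact permutation p = 0.2). Groups without overlap gave a two-sided exact permutation p of 0.1, the smallest that 3 against 3 libraries allow, in 12 comparisons of ratios made.

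**Figure D4:**
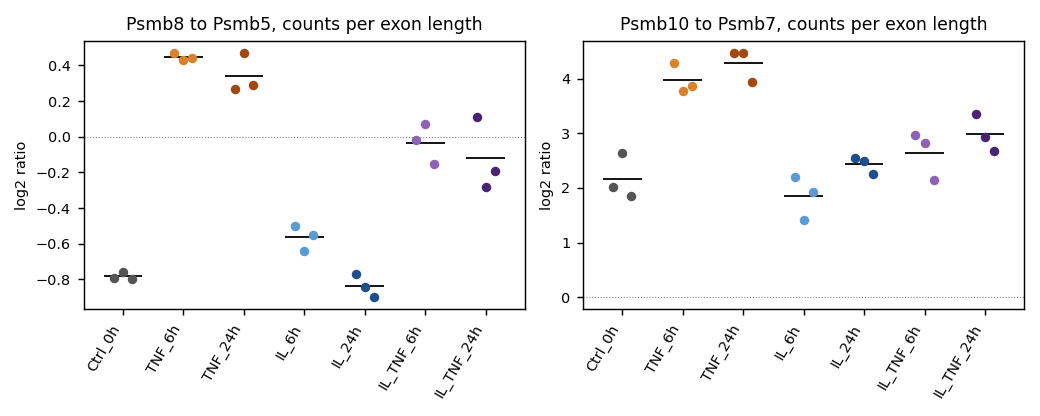
Log2 ratio of counts per exon length of Psmb8 to Psmb5 and of Psmb10 to Psmb7 in each library, with bars at the group means. The dotted line marks equal counts per merged exon length, and its place depends on the lengths used. The Psmb8 ratio was below it in Ctrl_0h (mean -0.78) and above it in TNF_6h (mean 0.45).

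Other genes of the pathway were taken from lists chosen with earlier results of these data known. Of 16 matched further class I genes, 12 were tested, and 11 of these were called raised in TNF_6h, where 18.8% of all genes were, with a median of 2.38, against -0.04 for all genes tested. H2-Q6 and H2-Q7, heavy chains of the Qa region, rose by 4.70 each, H2-T24 by 3.39 and H2-Q4 by 2.62, and Mr1, which presents vitamin B metabolites, was the 1 not called (0.11). In TNF_24h against TNF_6h, 7 of the 12 were called lowered, where 10.9% of all genes were, and none raised, with H2-Q6 at -2.15, H2-Q7 at -1.995, Cd1d1 at -1.52 and Mr1 at -1.51. At 6 h the TNF effect was called lower with IL than without it for 11 of the 12, where 9.13% of all genes were, as for H2-Q7 (-3.28) and H2-Q6 (-3.20). H2-Q7 stood at 25.4, 25.8 and 25.7 CPM in Ctrl_0h, 730.2, 612 and 660.4 CPM in TNF_6h and 181, 112 and 160.3 CPM in IL_6h. In IL_24h it stood at 10.9, 13.2 and 10.3 CPM, below each untreated library.

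Among 8 other loading and trimming genes, 5 were called raised in TNF_6h, where 18.8% of all genes tested were, with a median of 0.73. Tapbpl, a peptide editor related to tapasin, rose by 2.44 and the trimming peptidase Erap1 by 1.51, while the chaperone Canx (0.22) and Pdia3 (0.19), a partner of tapasin, were not called. Erap1 was called raised in IL_6h against Ctrl_0h too (2.20). Psme1 and Psme2, which form the activator cap of the immunoproteasome, rose in TNF_6h by 1.49 and 1.88, and 5 of 6 genes of that list were called raised, against the same 18.8%. In IL_24h against Ctrl_0h Psme1 (-0.91) and Psme2 (-0.72) were called lowered, as Psmb8 was. In these IL comparisons with Ctrl_0h, treatment, time and library set cannot be told apart.

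Among the 14 regulators, 12 were called raised in TNF_6h (median 1.02), where 18.8% of all genes were, and 11 in TNF_24h (median 1.83), where 20.9% were. Nlrc5, the transactivator of class I genes, had 20.98, 17.99 and 21.8 CPM in Ctrl_0h, 90.6, 106 and 101 CPM in TNF_6h and 178, 248 and 309 CPM in TNF_24h. Its changes were 2.29 at 6 h and 3.60 at 24 h, and the later group exceeded the earlier one in all libraries (1.31). Irf1, an activator of class I and immunoproteasome genes, followed the same order, with 72.2, 58.3 and 75.8 CPM, then 344, 327 and 328 CPM, then 857, 935 and 795 CPM (1.37 between the times). Relb, an NF-kB subunit, rose by 2.10 and 2.17 (0.08 between the times, not called). So Nlrc5 and Irf1 were higher at 24 h than at 6 h of TNF, while the heavy and light chains were lower.

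With IL and TNF together Irf1 stood at 295, 131 and 125 CPM at 24 h and overlapped neither TNF group. At 24 h the TNF effect was called lower with IL than without it for 10 of the 14 regulators, where 12.5% of all genes were, including Irf1 (-2.96), Nlrc5 (-2.52), Stat2 (-2.04), Rfx5 (-1.87) and Irf2 (-1.83). Ciita, the transactivator of class II genes, was highest in the IL groups. It was called raised against Ctrl_0h with IL alone (2.52 at 6 h and 3.91 at 24 h), where treatment, time and library set cannot be told apart.

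Interferon transcripts were scarce. Ifng had counts in 2 of the 21 libraries, at no more than 0.0973 CPM, and Ifnb1 reached at most 1.44 CPM, in TNF_24h, where the 3 libraries held 1.22, 1.44 and 0.298 CPM against 0, 0.0676 and 0 CPM in Ctrl_0h. Ifnb1 was called raised in TNF_6h and TNF_24h, but with so few counts the size of the change is not printed. Of the receptors, Ifngr2 was called raised in TNF_6h (1.19) and Ifngr1 was not (0.08).

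**Figure D5:**
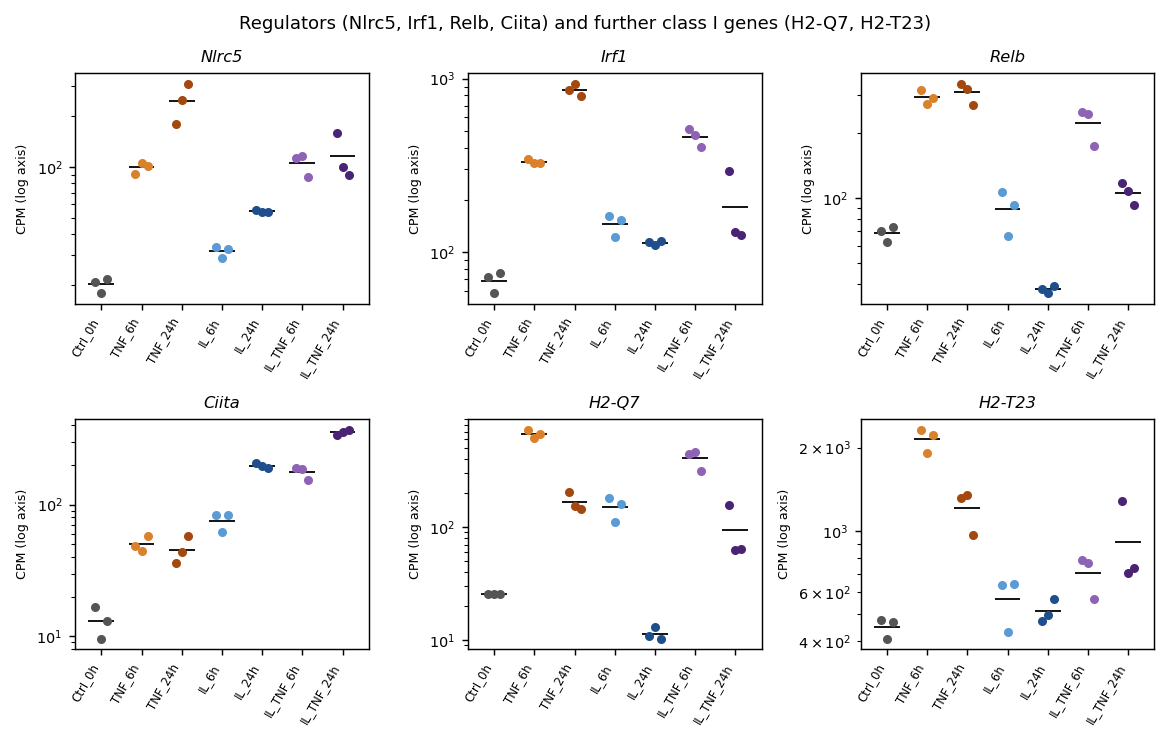
Level in CPM on a log axis of 4 regulators and 2 further class I genes in each of the 21 libraries, with bars at the group means. Nlrc5 and Irf1 are highest in TNF_24h and Ciita in IL_TNF_24h, whereas H2-Q7 and H2-T23 are highest in TNF_6h.

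The genes whose log2 CPM over the 21 libraries ran most like the mean of the members other than H2-M2 were Plaat3 (r = 0.968), Uba7 (0.967), Rasa4 (0.966), Slfn1 (0.965), Phf11 (0.965), Lgals9 (0.964), Grina (0.964), Phf11b (0.963), Clec2d (0.963) and H2-T22 (0.962). The genes most like H2-M2 were C3 (0.991), Cybb (0.963), Src (0.962), Cst7 (0.953) and Mllt6 (0.948). C3 is the central complement component and Cybb a subunit of the phagocyte oxidase. These are the highest of many correlations over libraries that share treatment, depth and set, and they are given as a description.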

How the data were processed

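The deposited table gives raw counts of reads per gene, in whole numbers, for 21 libraries. The submitters' processing notes name TopHat2 2.0.12, Subread 1.6.3 with featureCounts, edgeR 3.28.1 and the build GRCm38. No source used here states the annotation, the strand setting or how mates were counted, but 30373 values were 2 and 17808 were 1, so mates appear to be counted separately. Symbols were given to 32832 of 47069 identifiers. R 4.3.3 with edgeR 4.0.16 scaled the counts (TMM), filtered them by group (filterByExpr, 15581 of 32292 identifiers with a count) and fitted 1 term per group to all 21 libraries for 12 contrasts, with the quasi-likelihood F test, Benjamini-Hochberg adjustment and a threshold of 0.05. A standard error is the size of the log2 fold change divided by the root of F. Correlations used log2 CPM with a prior count of 2. Exon lengths came from GENCODE M1, and positions and promoters from RefSeq GRCm38.p6. Tested on data simulated for TNF_6h against Ctrl_0h (15354 genes), the fit recovered 58 of 100 genes changed 2-fold and 71 of 100 changed 4-fold, with 6 of 135 calls false. Only these genes were changed there, whereas 18.8% of genes were called raised and 20.5% lowered in the data. No simulated library was made to stand apart. These rates therefore need not hold for the data. Alternatives were DESeq2 1.42.0, other scaling and filters, fits on the compared groups alone, a replicate block and left-out libraries. Genes, lists and rules were chosen with earlier results of these data known. The text names all 9 genes, up to 4 called genes per list with the largest changes, regulators, and 10 and 5 genes of like pattern; Mr1, Canx, Pdia3, the constitutive subunits, interferons and their receptors were added after their values were seen, and 1 listed regulator is not reported here.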

Additional observations from a re-analysis of the deposited data

Results flagged for a closer look

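The effect of TNF differed, by a test of the difference itself (edgeR), between cells with and without IL or between times for these genes. With IL minus without IL at 6 h the difference on the log2 scale was -1.78 for H2-K1, -1.36 for H2-D1, -5.77 for H2-M2, -1.71 for B2m, -1.26 for Tap1, -1.5 for Tapbp and -1.08 for Psmb10. At 24 h it was -1.23 for H2-M2, -1.66 for Tap1, -1.68 for Tap2, -0.97 for Tapbp and -1.73 for Psmb10. The effect of TNF under IL was larger at 24 h than at 6 h by 2.54 for H2-M2. The groups differ in control time or library set as well, and their parts cannot be told apart.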

How the results depend on the processing

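Of 348 counts of genes called under an alternative, 332 stayed within 1.5 times the reported one. All 84 alternative ratio differences moved by less than the pooled SD of the groups compared. Leaving out 1 of 3 libraries cannot move a difference by more than that, and the other alternative only set the prior count to 0.5. That all 84 stayed is therefore no check of the ratios. Without the 4 libraries that stand apart, 7 of 9 genes were called in IL_24h against Ctrl_0h (reported 4), 9 in the TNF difference with and without IL at 24 h (5), and 3 in the TNF effect under IL between times (1), which gave 2 with library totals alone, the strict filter and the DESeq2 Wald test. Leaving out 1 library gave 3 to 6 for IL_TNF_6h against IL_6h (6), 3 to 6 for the difference at 24 h, 1 to 2 for the effect between times and 3 to 6 for IL_24h against Ctrl_0h. Over all tested genes, leaving out the 4 libraries raised the count called from 3675 to 5879 in TNF_24h against TNF_6h, from 1731 to 2731 in IL_TNF_24h against IL_24h and from 573 to 1461 in the effect between times, where the DESeq2 Wald test called 920 and leaving out replicate 3 of IL_6h or 1, 2 or 3 of IL_24h gave 343 to 375. Of the single-gene values, 2958 kept direction and call, 65 passed the threshold only under the alternative and 77 lost it, and 32 changed sign, none of them called. Values of changed sign without the 4 libraries were 0.18 (Psmb10, IL_6h against Ctrl_0h), -0.08 (H2-D1) and 0.09 (Psmb10) in IL_24h against Ctrl_0h, -0.05 (B2m, IL_TNF_24h against TNF_24h), and -0.03 (H2-D1), -0.35 (Tap1) and -0.04 (Psmb8) in the effect between times. In IL_24h against Ctrl_0h, H2-D1 was -0.02 with DESeq2 size factors, the strict filter and the DESeq2 Wald test, and Psmb10 was 0.04 with library totals alone and 0.03 with no filter. Where leaving out 1 library changed a sign, the values over all such fits ran from -0.19 to 0.14 (Psmb8), -0.01 to 0.10 (Tapbp) in TNF_24h against TNF_6h, -0.34 to 0.09 (Psmb10) in IL_6h and -0.12 to 0.12 (H2-D1), -0.10 to 0.05 (Psmb10) in IL_24h against Ctrl_0h, -0.04 to 0.29 (B2m) in IL_TNF_24h against TNF_24h and -0.08 to 0.37 (H2-D1), -0.35 to 0.29 (Tap1), -0.10 to 0.44 (Psmb8), -0.41 to 0.06 (Psmb10) in the effect between times. The cause was not tested. Library totals alone moved the median of all genes by -0.21 in TNF_6h, -0.16 in TNF_24h and 0.16 in IL_6h against Ctrl_0h, by 0.27 and 0.19 in IL_TNF against TNF at 6 h and 24 h, and by 0.11 and 0.10 in the differences at 6 h and 24 h. Same-numbered libraries did not deviate together (r from -0.31 to 0.36, over 0.1 in 6 of 63 pairs, and 7 of 21 libraries ran closest to their own number). With the replicate number as a block, the counts called were 9, 9, 5, 6, 4, 6, 8, 8, 7, 7, 5 and 1 of 9 over the 12 comparisons, where 6 is IL_6h against Ctrl_0h (reported 5) and 8 is IL_TNF_24h against IL_24h (reported 7). Depth limited H2-M2 in Ctrl_0h, with 45 counts.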
